A study of Rattus norvegicus with 34 samples.

Results

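The comparison described here set 3 arrays of rat cortical neurons labelled 8 h after mild neurotrauma against 3 arrays labelled 0 h after mild neurotrauma. Arrays were taken by their titles, which gave 6 of the 34 arrays of the series, and 21848 features were compared: 21743 named genes and the unnamed probes beside them. No single gene passed the test for a difference between 8 h and 0 h. For nearly every feature the fit put a narrow bound on the difference in ratio between the 2 times. Whether a gene was above background was not examined, and below background such a bound says nothing about a change in transcript. By their medians, transcripts of the sterol synthesis pathway lay lower at 8 h, proteasome and respiratory chain transcripts lay slightly lower, and microglial markers lay higher, by 0.24 on the log2 scale, or 0.13 without mild 0 h replicate 1. The largest difference, that of the chemokine Ccl20, rested on the same array.

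Both groups were the same kind of culture and differed, by their labels, in time after the injury alone. Cortical tissue of 8 to 10 rat embryos was pooled, dissociated and grown on glass. The medium was Neurobasal with B-27 supplement, a serum-free mixture that favours neurons over dividing glia. The labels name the strain both as Hooded Wistar and as Wistar. The embryos were at day 17 by the growth protocol, and at gestation day 15 to 16 by the sample characteristics. After 21 days in culture the neurons had gathered into clusters linked by thick axon bundles, and it was these bundles that were injured. The protocol names a knife cut and a stretch by puffs of oxygen as the injuries, and the labels do not say which was the mild one. RNA of at least 12 wells was pooled at each time. The labels speak of 3 cultures, each from another pregnant rat, but tie no replicate number to a culture. The injury touched axon bundles while the RNA came from whole wells, so each value is an average over the injured and uninjured cells and any glia present. The p-values given here measure the spread between these arrays, which may in part be technical.

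Axon injury is known to set off several gene programmes in neurons. Calcium entry drives immediate early transcription factors such as Fos and Egr1 within minutes, signals carried along the axon later raise injury factors such as Atf3 and Jun, and growth-cone genes such as Gap43 accompany regrowth. Microglia, the resident macrophages of the brain, respond with chemokines and complement proteins, and sterols, which neurons need for membranes and synapses, are made by a chain of enzymes whose genes are switched together by the factor SREBP2.

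Each deposited value of the controls and the mild 0 to 24 h arrays was a ratio to the mean signal of control replicates 1 to 3. The ratios are given here as log2, so that 0 stands for the level of those controls. The severe and mild 48 h arrays were divided instead by the mean of the 3 arrays labelled mild 48 h. In the 12 arrays of the mild 0, 8, 15 and 24 h groups the ratios lay between 0.234 and 17.6. A ratio holds no signal level, and the columns of the deposited signal table carry names that match no label, so no level was taken from them. Whether a gene was above background, and whether defining markers of neurons or of other cells were present, was therefore not examined. The replicate number is also the chip: by their labels, replicates 1, 2 and 3 of every mild time were hybridised on chips 1, 2 and 3. The labels themselves carry a doubt. The deposited table of signals holds the same arrays in another order, with those labelled mild 48 h at places 4 to 6, before control replicates 4 to 6 at places 7 to 9, mild 0 h at places 10 to 12 and mild 8 h at places 13 to 15. If that order were the right one, the arrays labelled mild 0 h and 8 h would be mild 8 h and 15 h. Control replicates 4 to 6 would then be mild 0 h, and the arrays labelled mild 24 h would be mild 48 h. The arrays labelled mild 48 h, whose mean divides the severe ratios, would be control replicates 4 to 6. Which order is right was not tested. The same doubt then holds for every value of control replicates 4 to 6 and of the 24 h arrays given here. The groups are named here as labelled.

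A pair of the 0 h arrays stood apart, each in its own way. The median of 146 housekeeping genes (ribosomal, proteasome and respiratory chain genes) was 0.21, 0.07 and 0.07 in mild 8 h replicates 1 to 3, and 0.27, 0.43 and 0.14 in mild 0 h replicates 1 to 3. Mild 0 h replicate 2 was thus the highest of the 6, and its SD over all features, 0.246, was also above the range of the other arrays compared, 0.141 to 0.169. Mild 0 h replicate 1 stood apart in chemokine and microglial genes, as shown further on. Array by array, the SD over features of the difference between a pair of arrays was 0.128 to 0.147 within 8 h and 0.143 to 0.200 within 0 h, against 0.125 to 0.203 between an 8 h and a 0 h array. The range between times overlapped both ranges within a time, and its highest pair was the widest of all.

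Across all features, 0 of 21848 (0%) passed an adjusted p under 0.05 (limma, two-sided, Benjamini-Hochberg over all features), and the smallest adjusted p was 0.906. At an unadjusted p under 0.05 there were 1037 features (4.75%), of which 268 lay higher at 8 h (1.23%) and 769 lay lower (3.52%). Without mild 0 h replicate 3 there were 2283, without mild 0 h replicate 2 there were 586, and in a fit of the 6 compared arrays alone there were 1547. The lean towards lower values went with the scaling: 419 of 758 lay higher after quantile normalization, 326 of 1079 after setting each array's median to 0, and 2005 of 2011 after centring each array on the housekeeping genes. The 3 arrays at 8 h were all above the 3 at 0 h for 936 features (4.28%) and all below for 1538 (7.04%). On each of the 3 chips the 8 h array was the higher for 2197 features (10.1%) and the lower for 4074 (18.6%). Differences, mild 8 h minus mild 0 h, had a median of -0.02 and ran from -0.63 for Il1rl1 to 1.01 for Ccl20, and 8894 features (40.7%) were above 0 and 12954 (59.3%) below.

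**Figure D1:**
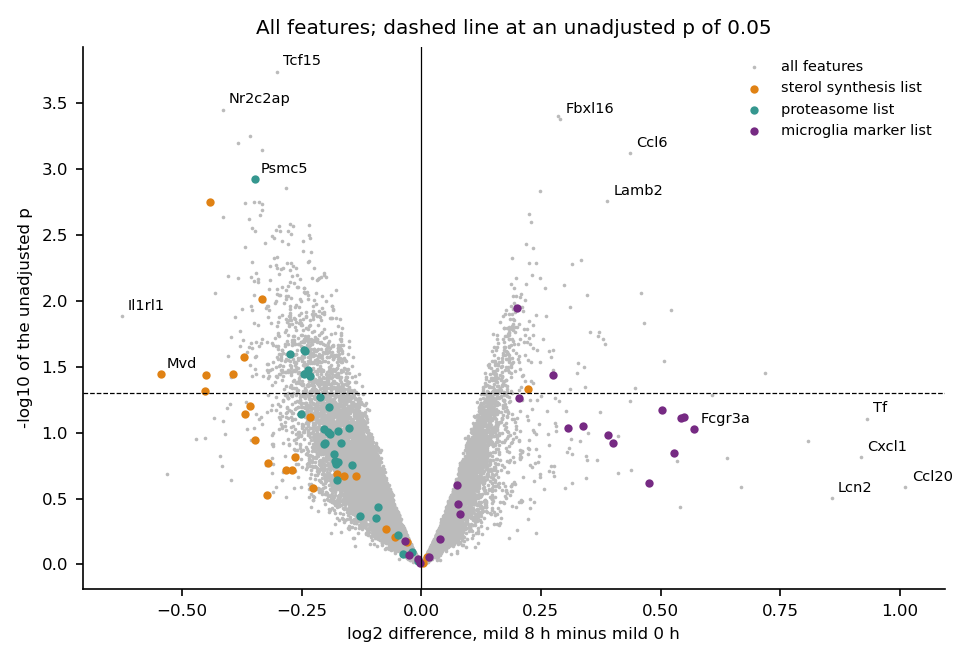
Each point is 1 of 21848 features; the horizontal axis is the log2 difference, mild 8 h minus mild 0 h (n = 3 arrays each), and the vertical axis is -log10 of the unadjusted limma p, with a dashed line at 0.05. The sterol list (orange) and the proteasome list (green) lie mostly left of 0, the microglia list (purple) mostly right of it. The features with the largest differences on the right, such as Ccl20 at 1.01 and Lcn2 at 0.86, have large p. The p uses a spread shared by the 4 mild times. For Ccl20 the SD was 1.52 at 0 h and 2.26 at 15 h, and for Lcn2 it was 1.24 and 2.25.

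The bound on each difference in ratio was tight. Genes above background were not told from genes below it, for which a narrow interval bounds no change in transcript. The 95% interval reached a median of 0.17 to either side of the difference, 0.27 at the 90th percentile and 0.42 at the 99th. For 21819 features (99.87%) the whole interval lay within a 2-fold difference either way, and for 21514 (98.5%) within 1.5-fold. The interval did not lie within 2-fold for 29 features, of which 25 have a gene symbol. These were chemokines and acute-phase genes (Ccl20, Ccl2, Ccl7, Cxcl1, Lcn2, Chi3l1, Cp), complement and microglial genes (Cfb, C1s, Serping1, C1qb, C1qc, Aif1, Cd68, Ctss, Fcgr3a, Fcgr2al1), and Tf, Gdf15, Scd, Mvd, Il1rl1, Kcnd2, Dpysl3 and Dusp3. For those genes the fit did not bound the difference to under 2-fold. The spread behind each interval is shared by the 4 mild times, so the 15 h and 24 h arrays enter it too. For Scd the SD was 0.40 at 8 h and 0.13 at 0 h, but 1.18 at 15 h. For Il1rl1 it was 0.57 at 8 h and 0.28 at 0 h, against 0.24 at 15 h.

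Genes of sterol synthesis and uptake lay lower at 8 h and had the lowest median of the 34 lists examined. Of 29 genes listed, 26 were measured, 0 passed the adjusted test, and 23 lay below 0, against 59.3% of all features. Their median was -0.28, against -0.02 over all features, and by chip it was -0.32, -0.32 and -0.19. At an unadjusted p under 0.05 there were 7 members that lay lower (26.9%, against 3.52% of all features) and 1 that lay higher (3.85%, against 1.23%), and in 9 the 3 arrays at 8 h were all below the 3 at 0 h, as in 7.04% of all features. The list's median stayed below 0 under every scaling tried, at its nearest to 0 (-0.11) after housekeeping centring.

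Fdft1, squalene synthase, the first step that commits to sterols, was at 0.24, 0.39 and 0.19 in mild 8 h replicates 1 to 3, against 0.63, 0.76 and 0.43 in mild 0 h replicates 1 to 3. All 8 h arrays lay below all 0 h arrays, and the difference was -0.33 ± 0.11 (SE), or 0.794-fold, with a 95% interval of -0.57 to -0.09, an unadjusted p of 0.0097 and an adjusted p of 0.906 (limma). Mvd, which makes isopentenyl diphosphate from mevalonate diphosphate, was at 0.20, 0.72 and 0.20 at 8 h, against 0.89, 1.03 and 0.83 at 0 h. Its groups did not overlap either, although replicate 2 at 8 h came near the 0 h arrays, and the difference was -0.54 ± 0.23. Fdps, which makes the farnesyl diphosphate that Fdft1 uses, was at 0.47, 0.49 and 0.24 at 8 h, against 0.78, 1.03 and 0.50 at 0 h (-0.37 ± 0.15). The late enzymes Sc5d (-0.45 ± 0.21) and Tm7sf2 (-0.39 ± 0.17) also had no overlap, and Acat2, an acetyl-CoA acetyltransferase at the start of the route, was at 0.11, 0.59 and 0.19 at 8 h, against 0.75, 0.93 and 0.56 at 0 h (-0.45 ± 0.19), where replicate 2 at 8 h reached into the 0 h range.

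Genes around the pathway had other values. Srebf2, which encodes the SREBP2 factor, differed by -0.05 ± 0.11. Abcg1, a sterol exporter, was at 0.06, -0.14 and 0.10 at 8 h, against -0.24, -0.07 and -0.34 at 0 h, a difference of 0.22 ± 0.10 (unadjusted p = 0.0471), higher on chips 1 and 3 alone. Taken over the 26 genes, the median level was 0.21, 0.37 and 0.16 in the 8 h arrays and 0.62, 0.74 and 0.41 in the 0 h arrays. Control replicates 4 to 6, which are no part of the divisor, had medians of 0.61, 0.61 and 0.68, within the range of the 0 h arrays and above every 8 h array. Fatty acid synthesis genes, which a sister factor controls, had 14 of 16 members below 0 and a median of -0.15, which turned to 0.02 after housekeeping centring. The largest difference among them was that of the desaturase Scd, at 0.42, 1.16 and 0.54 at 8 h, against 1.19, 1.39 and 1.14 at 0 h (-0.53 ± 0.40), and replicate 2 at 8 h overlapped the 0 h arrays.

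Promoter sequences are shown for genes of the groups that lay together, each as the 250 bases before the gene's start in RefSeq's annotation of GRCr8, 5′ to 3′ on the gene's own strand. Sterol synthesis promoters often carry a CCAAT box, a site of the factor NF-Y, which works with SREBP2. That of Mvd, at chr19:67414975-67415224 on the minus strand, holds 1 match to CCAAT on either strand, in capitals and here read as its reverse complement.
Mvd: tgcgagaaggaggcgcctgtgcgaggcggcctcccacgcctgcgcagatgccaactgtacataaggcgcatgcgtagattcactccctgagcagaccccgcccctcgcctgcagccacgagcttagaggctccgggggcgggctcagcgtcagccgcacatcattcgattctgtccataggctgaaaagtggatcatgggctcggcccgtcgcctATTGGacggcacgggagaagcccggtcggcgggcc
Among all 27457 promoters of this length 34.3% hold CCAAT on either strand, as do 16 of the 20 promoters found for the sterol list (80.0%). A match is a description of the letters and not a bound site. Fdft1 had no promoter entry.

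**Figure D2:**
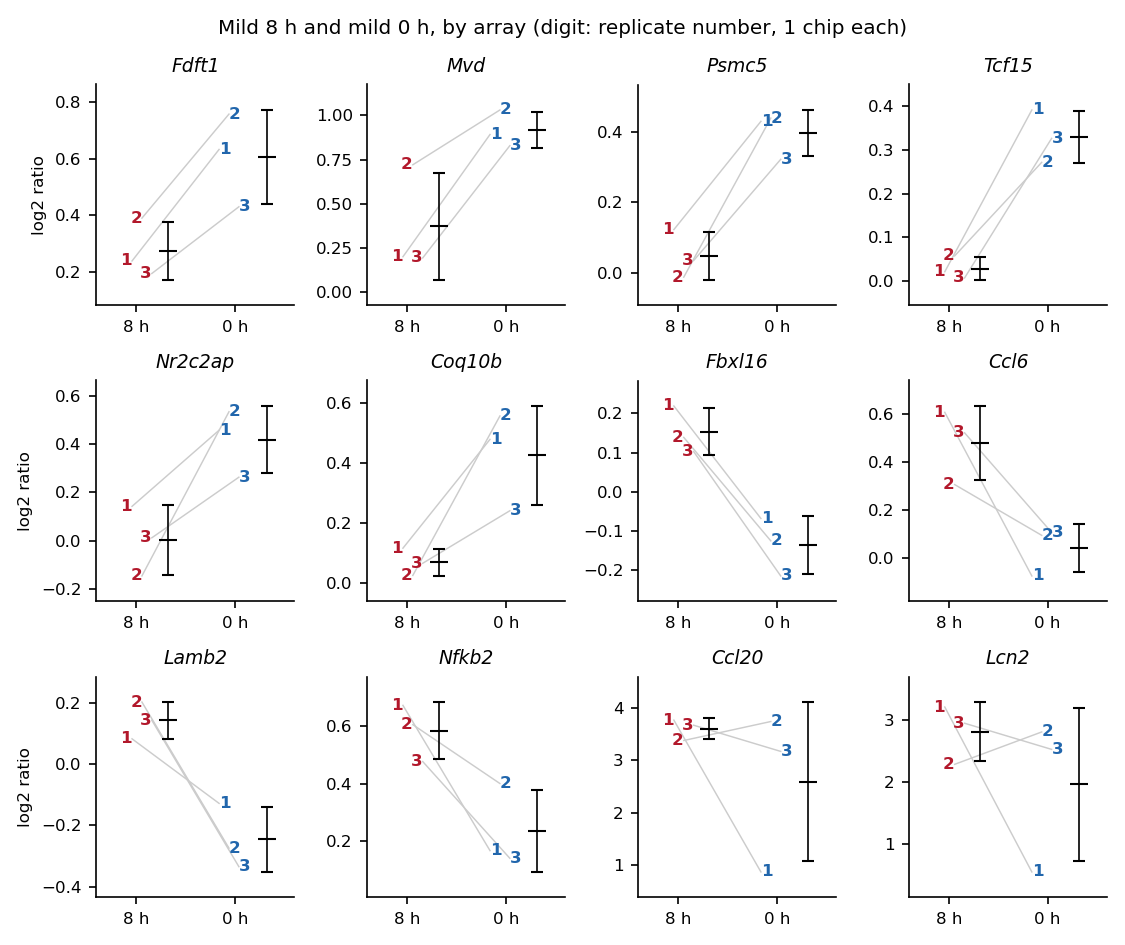
Each panel shows 1 gene: digits are the log2 ratios of the arrays at mild 8 h (red, left) and mild 0 h (blue, right) with the replicate number, which is also the chip, grey lines join arrays of 1 chip, and bars give the mean ± SD (n = 3). Fdft1, Mvd, Psmc5, Tcf15, Nr2c2ap and Coq10b lie lower at 8 h with no overlap, Fbxl16, Ccl6, Lamb2 and Nfkb2 lie higher with no overlap, and in Ccl20 and Lcn2 the gap comes from replicate 1 at 0 h, at 0.87 and 0.54.

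Housekeeping complexes lay slightly lower at 8 h, by an amount tied to the chip and the scaling. All 31 proteasome genes were measured and all 31 lay below 0 (59.3% of all features did), with a median of -0.18. An unadjusted p under 0.05 was reached by 7 of them (22.6%, against 3.52% of all features), and 12 had no overlap, against 7.04%. The median was -0.12 on chip 1, -0.36 on chip 2 and -0.08 on chip 3, so the chip that holds mild 0 h replicate 2 had the largest gap. Of the respiratory chain list, 41 of 42 measured genes lay below 0 with a median of -0.18, and of the ribosomal proteins 71 of 73, with a median of -0.13 that was -0.03, -0.35 and -0.05 by chip. Leaving out mild 0 h replicate 2 brought the medians to -0.11, -0.10 and -0.05. The median level of the proteasome list was 0.41, 0.37 and 0.36 in control replicates 4 to 6, within the range of the 0 h arrays (0.21 to 0.50). Housekeeping centring, which uses these same genes, brought them to -0.02, -0.01 and 0.03 and moved the median of all features to 0.14. RNA quality was not tested.

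Psmc5, an ATPase subunit of the proteasome's regulatory cap, stood out from its list by the agreement of its arrays. It was at 0.12, -0.01 and 0.04 at 8 h, against 0.43, 0.44 and 0.32 at 0 h. The groups were well apart on all 3 chips, and the difference was -0.35 ± 0.09 (unadjusted p = 0.0012, adjusted p = 0.906, limma); it was -0.19 after housekeeping centring. Atp5mc1, a ring subunit of ATP synthase, was at 0.13, -0.01 and 0.11 at 8 h, against 0.41, 0.55 and 0.22 at 0 h (-0.32 ± 0.13), also with no overlap.

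By the smallest unadjusted p, the genes that lay lower at 8 h on all 3 chips were of mixed function. Tcf15, a basic helix-loop-helix factor of early mesoderm, had the smallest p of all features. It was at 0.02, 0.06 and 0.01 at 8 h, against 0.39, 0.27 and 0.33 at 0 h, a difference of -0.30 ± 0.06 (unadjusted p = 0.000183). Nr2c2ap, a binding partner of a nuclear receptor, was at 0.14, -0.14 and 0.01 at 8 h, against 0.46, 0.53 and 0.26 at 0 h (-0.41 ± 0.09). Coq10b, a mitochondrial protein of coenzyme Q function, was at 0.12, 0.03 and 0.07 at 8 h, against 0.48, 0.56 and 0.24 at 0 h (-0.36 ± 0.08). In all 3 the 8 h arrays sat close to the level of control replicates 1 to 3 while the 0 h arrays sat above it. Control replicates 4 to 6 sat above it too, at 0.43, 0.45 and 0.39 for Coq10b, 0.23, 0.25 and 0.21 for Nr2c2ap and 0.27, 0.31 and 0.08 for Tcf15. Ccl27, a chemokine, lay on both sides of that level: it was at -0.24, -0.28 and -0.11 at 8 h, against 0.14, 0.32 and 0.05 at 0 h (-0.38 ± 0.09). Control replicates 1 to 6 were at -0.12, -0.00, 0.12, 0.18, 0.11 and 0.15 for Ccl27. Besides Psmc5, this rule also named Tmem35a, Wdr54, Kmt5al3, Leng1, Slc25a29, Bud23, Ddx39a, Rexo4 and Cabp7, 9 genes with differences from -0.41 (Bud23) to -0.23 (Cabp7), and each had an adjusted p of 0.906.

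The genes that lay higher at 8 h on all 3 chips included several of macrophages and microglia. Ccl6, a chemokine made by myeloid cells, was at 0.61, 0.31 and 0.52 at 8 h, against -0.07, 0.10 and 0.11 at 0 h. No 8 h array overlapped a 0 h array, and the difference was 0.44 ± 0.10 (unadjusted p = 0.000761, adjusted p = 0.906, limma). In RNA of pooled wells, fewer or more cells of a type and less or more RNA per cell cannot be told apart. Cd36, a scavenger and lipid receptor, was at 0.15, 0.20 and 0.20 at 8 h, against -0.03, -0.00 and -0.17 at 0 h (0.25 ± 0.06). Mmp12, the macrophage elastase, was at 0.08, 0.52 and 0.17 at 8 h, against -0.15, 0.03 and -0.12 at 0 h (0.33 ± 0.10), with replicate 2 the highest at each time. Ccl4, a chemokine of activated microglia, was at 0.73, 0.53 and 0.52 at 8 h, against 0.20, 0.38 and 0.31 at 0 h (0.30 ± 0.10). Tnfsf13, a cytokine of the tumour necrosis factor family, differed by 0.23.

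Fbxl16 and Lamb2, also in this set, are not particular to myeloid cells. Fbxl16, an F-box protein, had the smallest p among the named genes that lay higher and was at 0.22, 0.14 and 0.10 at 8 h, against -0.07, -0.13 and -0.21 at 0 h (0.29 ± 0.06, unadjusted p = 0.000418). Lamb2, a laminin chain of basement membranes and synapses, was at 0.08, 0.20 and 0.14 at 8 h, against -0.13, -0.27 and -0.34 at 0 h (0.39 ± 0.10). The 8 h arrays were above and the 0 h arrays below the mean of control replicates 1 to 3 in both genes. The control arrays themselves lay on both sides of it. Control replicates 1 to 6 were at 0.08, -0.37, 0.23, -0.34, -0.00 and 0.17 for Lamb2, a range that holds every 8 h and 0 h value. For Fbxl16 they were at 0.11, -0.01, -0.11, -0.00, 0.07 and -0.07. C20h21orf58, Snrpb2-ps1, Utp15, Esr2, Mageb3, Igsf7, Or4f58 and Htr3b completed the set, with differences of 0.19 (Utp15) to 0.26 (Htr3b). Of the features with such small p, 6 that lay higher and 3 that lay lower had no gene symbol and are not named.

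Inflammatory genes held the largest differences and the widest errors. Of 36 genes measured, 24 lay above 0, with a median of 0.07 and chip medians of 0.23, -0.12 and 0.10, and an unadjusted p under 0.05 was reached by 3 genes that lay higher (8.33%, against 1.23% of all features) and 1 that lay lower (2.78%, against 3.52%). Microglial markers also lay higher (list median 0.24, described below), though on chip 2 their median was 0.18 against the -0.12 of the inflammatory genes. Their part in the differences was not tested. Nfkb2, a subunit of the NF-kB factor that drives many of these genes and is itself one of its targets, was one of the 3, beside Ccl4, given above, and Il1a. It was at 0.67, 0.60 and 0.48 at 8 h, against 0.17, 0.40 and 0.14 at 0 h (0.35 ± 0.11, unadjusted p = 0.00909), with no overlap. Il1a, interleukin 1 alpha, was at 0.35, 0.17 and 0.12 at 8 h, against -0.17, -0.00 and 0.11 at 0 h (0.23 ± 0.09), where the groups met almost end to end. The 1 gene on the other side was Il1rl1, the interleukin 33 receptor, at 0.71, -0.29 and 0.69 at 8 h, against 0.71, 1.27 and 1.00 at 0 h (-0.63 ± 0.22), and replicate 2 at 8 h was far below the other 5 arrays.

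Ccl20, a chemokine for lymphocytes and dendritic cells, had the largest difference of all features, and it rested on 1 array. It was at 3.77, 3.38 and 3.67 in mild 8 h replicates 1 to 3, against 0.87, 3.74 and 3.17 in mild 0 h replicates 1 to 3. Replicates 2 and 3 at 0 h lay in or just under the 8 h range while replicate 1 lay far below, and the difference of 1.01 ± 0.86 (95% interval -0.84 to 2.86) became 0.15 without that array. Lcn2, a siderophore-binding acute-phase protein of reactive glia, was at 3.22, 2.29 and 2.95 at 8 h, against 0.54, 2.81 and 2.53 at 0 h (0.86 ± 0.82; 0.15 without mild 0 h replicate 1). Cxcl1, a neutrophil chemokine, was at 2.03, 0.61 and 1.75 at 8 h, against -0.43, 1.24 and 0.82 at 0 h (0.92 ± 0.61; 0.43 without that array). Ccl2, a monocyte chemokine, was at 2.08, 1.24 and 1.94 at 8 h, against 0.26, 1.75 and 1.26 at 0 h (0.67 ± 0.57; 0.25 without it). The same array was the lowest of the 6 in all 4 genes. Tf, transferrin, also had that array as its lowest, but its groups did not overlap. It was at 1.86, 1.54 and 1.61 at 8 h, against -0.05, 1.34 and 0.93 at 0 h (0.93 ± 0.49, and 0.54 without mild 0 h replicate 1). These genes and Fcgr3a, Cfb, C1qc, Cd68 and Serping1 are given because of their large differences and were chosen after their values were seen.

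Followed along chip 1, the Ccl20 values were 0.87 at 0 h, 3.77 at 8 h, 4.14 at 15 h and 0.00 at 24 h. On chip 2 they were 3.74, 3.38, 0.03 and 0.33 at the same times, and on chip 3 they were 3.17, 3.67, 0.44 and -0.05. Ccl20 was thus high at 8 h on every chip, at 0 h on chips 2 and 3, and at 15 h on chip 1. Lcn2 was likewise high at 8 h on every chip, at 0 h on chips 2 and 3 and at 15 h on chip 1, at 0.54, 3.22, 4.06 and 0.11 on chip 1 for 0, 8, 15 and 24 h, 2.81, 2.29, 0.15 and 0.03 on chip 2, and 2.53, 2.95, 0.17 and -0.07 on chip 3. Whether chip 1 followed another course in the cultures or carries other labels was not tested.

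The promoters of Ccl20, at chr9:91836909-91837158 on the plus strand, and Cxcl1, at chr14:17479322-17479571 on the minus strand, are shown because both genes are known targets of NF-kB, and Nfkb2 lay higher beside them. Capitals mark matches to one form of the NF-kB site, GGG followed by any 2 bases and TTTCC, on either strand: 1 in Ccl20 and 2 in Cxcl1.
Ccl20: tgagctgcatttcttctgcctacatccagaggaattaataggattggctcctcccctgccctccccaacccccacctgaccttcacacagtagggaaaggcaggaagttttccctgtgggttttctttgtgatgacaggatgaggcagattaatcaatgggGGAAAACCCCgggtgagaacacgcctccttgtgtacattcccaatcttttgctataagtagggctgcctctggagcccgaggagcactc
Cxcl1: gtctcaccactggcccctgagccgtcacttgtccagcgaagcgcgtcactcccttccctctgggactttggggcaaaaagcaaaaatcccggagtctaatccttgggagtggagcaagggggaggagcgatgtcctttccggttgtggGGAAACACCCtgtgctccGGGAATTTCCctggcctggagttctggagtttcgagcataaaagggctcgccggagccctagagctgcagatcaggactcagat
Of all 27457 promoters of this length, 1.28% hold the motif, and of the 29 found for the inflammation list 8 do (27.6%). Ccl2 had no promoter entry.

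Microglial markers lay higher at 8 h, as a list more than as single genes. Of 25 markers 22 were measured, 0 passed the adjusted test, and 18 lay above 0, against 40.7% of all features. The median was 0.24, with 0.33, 0.18 and 0.14 by chip, and 0.13 without mild 0 h replicate 1. Over the list, the median level was 0.24, 0.45 and 0.23 in the 8 h arrays and 0.02, 0.30 and 0.18 in the 0 h arrays, so replicate 2 at 0 h lay within the 8 h range. Control replicates 4 to 6 had medians of 0.37, 0.37 and 0.23, in or at the edge of the 8 h range. In 5 markers all 8 h arrays were above all 0 h arrays, against 4.28% of all features, and 2 had an unadjusted p under 0.05 (9.09%, against 1.23% that lay higher among all features).

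Fcgr3a, an antibody receptor, had the largest difference of the list. It was at 1.69, 1.52 and 1.62 at 8 h, against 0.26, 1.61 and 1.25 at 0 h (0.57 ± 0.32; 0.18 without mild 0 h replicate 1), so the time points overlapped through replicate 2. C1qc, a chain of the first complement component, was at 1.21, 1.20 and 1.10 at 8 h, against 0.31, 0.96 and 0.61 at 0 h (0.54 ± 0.28), with no overlap. Cd68, a lysosomal protein of phagocytes, was at 0.78, 1.34 and 0.75 at 8 h, against 0.02, 0.68 and 0.52 at 0 h (0.55 ± 0.29), and was the higher on all 3 chips. Cd53, a leukocyte tetraspanin, had the smallest p of the list, at 0.14, 0.04 and 0.02 at 8 h, against -0.16, -0.01 and -0.22 at 0 h (0.20 ± 0.07, unadjusted p = 0.0115). Other members of the list had small differences: P2ry12, a nucleotide receptor, by -0.03 ± 0.08, Cx3cr1, the fractalkine receptor, by 0.08 ± 0.06, and Tmem119 by 0.02.

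Of complement genes outside the marker list, Cfb, Serping1 and C1s are given here, and they lay the same way with wide errors. Cfb and Serping1 were chosen for their large differences. C1s was at 1.34, 0.49 and 0.95 at 8 h, against -0.01, 1.07 and 0.49 at 0 h (0.41 ± 0.31), and was the lower on chip 2. Cfb, factor B of the alternative pathway, was at 1.62, 0.73 and 1.40 at 8 h, against 0.10, 0.91 and 0.59 at 0 h (0.72 ± 0.31; 0.50 without mild 0 h replicate 1), and replicate 2 at 8 h fell within the 0 h range. Serping1, an inhibitor of the classical pathway, was at 0.74, 0.32 and 0.66 at 8 h, against -0.37, 0.24 and 0.03 at 0 h (0.61 ± 0.28), with no overlap.

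Neuronal markers lay on the other side, near the housekeeping genes. Of 23 neuronal markers measured, 21 lay below 0, with a median of -0.15 that was -0.09, -0.38 and -0.05 by chip and turned to 0.01 after housekeeping centring. Nefm, a neurofilament of axons, was at -0.10, -0.01 and -0.19 at 8 h, against 0.14, 0.34 and 0.07 at 0 h (-0.28 ± 0.09, unadjusted p = 0.00929), and was one of 5 markers whose 8 h arrays were all below the 0 h arrays (7.04% of all features were). Gad1, the enzyme that makes the inhibitory transmitter GABA, was at 0.40, 0.16 and 0.39 at 8 h, against 0.62, 0.73 and 0.42 at 0 h (-0.27 ± 0.10), and Sst, the peptide of a class of inhibitory neurons, was at 0.22, 0.09 and 0.05 at 8 h, against 0.34, 0.51 and 0.44 at 0 h (-0.31 ± 0.13). Tubb3, a neuronal tubulin, was at 0.53, 0.64 and 0.35 at 8 h, against 0.35, 0.62 and 0.46 at 0 h (0.03 ± 0.14), with full overlap. Astrocyte markers had 13 of 24 above 0 and a median of 0.01, and Gfap, the filament of astrocytes, was at 0.26, -0.12 and 0.14 at 8 h, against 0.11, 0.14 and -0.13 at 0 h (0.05 ± 0.13). The medians of the oligodendrocyte, endothelial and fibroblast markers were 0.05, -0.02 and -0.00.

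Fos and Egr1, the immediate early factors of the programmes described above, had differences near 0. Their 95% intervals lay within a 1.5-fold difference either way, but were wider than the median of all features, 0.17 to either side. Fos was at -0.95, -1.36 and -1.08 at 8 h, against -1.18, -0.99 and -1.17 at 0 h, a difference of -0.01 ± 0.14 (95% interval -0.32 to 0.29, adjusted p = 0.993, limma; 0.15 after housekeeping centring). Egr1 was at -1.16, -1.49 and -1.24 at 8 h, against -1.44, -1.16 and -1.56 at 0 h (0.09 ± 0.12, 95% interval -0.16 to 0.34). Both genes lay far below control replicates 1 to 3 at both times, and so they did in control replicates 4 to 6, where Fos was at -1.51, -1.51 and -1.25 and Egr1 at -1.68, -1.42 and -1.43. Of 29 immediate early genes measured, 18 lay below 0 (62.1%, against 59.3% of all features), with a median of -0.05. None of the 29 had an unadjusted p under 0.05, and the median was 0.12 after housekeeping centring. The effectors that neuronal activity induces had a median of -0.02, and of these 29 also 18 lay below 0.

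Atf3, the factor most often used as a sign of axon injury, was at -0.13, -0.18 and -0.28 at 8 h, against -0.32, -0.27 and -0.38 at 0 h (0.12 ± 0.10). Jun was at 0.06, -0.22 and -0.18 at 8 h, against -0.11, -0.01 and -0.23 at 0 h (0.00 ± 0.09). Both factors were near or below the control level at both times and their groups overlapped. Gap43, a growth-cone protein, was at 0.03, 0.05 and 0.00 at 8 h, against 0.20, 0.35 and 0.06 at 0 h (-0.18 ± 0.11), the lower on every chip. Bdnf, a neurotrophin, was at -0.06, -0.24 and -0.05 at 8 h, against -0.24, 0.03 and -0.28 at 0 h (0.05 ± 0.13). Over the axon injury list the median was -0.06, and it turned to 0.10 after housekeeping centring. Of its 34 genes 22 lay below 0 (64.7%, against 59.3% of all features). In 5 of the 34 members the 8 h arrays were all below the 0 h arrays, as in 7.04% of all features. Of the members that lay lower, 2 had an unadjusted p under 0.05 (limma; 5.88%, against 3.52% of all features). Nts, the peptide neurotensin, was at 0.06, 0.19 and 0.02 at 8 h, against 0.21, 0.67 and 0.32 at 0 h (-0.31 ± 0.11, unadjusted p = 0.0147), with no overlap. Adcyap1, a neuropeptide of injured neurons, differed by -0.33 ± 0.14 (unadjusted p = 0.0373), and Klf7, a factor of axon growth, by -0.36 ± 0.20, both with overlap.

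Stress programmes of the endoplasmic reticulum lay a little lower at 8 h. Of 34 genes measured in the list for the unfolded protein and integrated stress responses, 28 lay below 0, with a median of -0.10 that turned to 0.07 after housekeeping centring. Manf, a secreted protein of the stressed reticulum, was at 0.19, 0.12 and 0.05 at 8 h, against 0.53, 0.48 and 0.28 at 0 h (-0.31 ± 0.09, unadjusted p = 0.00332). Creld2, induced by the same stress, was at 0.21, 0.16 and 0.12 at 8 h, against 0.57, 0.75 and 0.38 at 0 h (-0.40 ± 0.13). Neither gene's groups overlapped. Hspa5, the chief chaperone of the reticulum, differed by -0.25 ± 0.13, and Ddit3, its apoptotic factor, by -0.09 ± 0.09.

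Genes of the remaining lists also had 8 h and 0 h arrays that did not overlap, in some by a small margin, and those given here are only some of them. Cry1, a repressor of the circadian clock, was at 0.05, 0.32 and 0.10 at 8 h, against 0.38, 0.56 and 0.36 at 0 h (-0.28 ± 0.08, unadjusted p = 0.00371). The clock list as a whole had 9 of 18 genes on each side of 0. Fkbp5, a co-chaperone induced by glucocorticoids, was at 0.22, 0.35 and 0.11 at 8 h, against 0.68, 0.82 and 0.36 at 0 h (-0.40 ± 0.15), with no overlap in a list whose median was 0.00. Camkk1, a calmodulin-dependent kinase, was at 0.16, 0.40 and 0.14 at 8 h, against 0.48, 0.79 and 0.50 at 0 h (-0.35 ± 0.12). Bcl11b, a transcription factor of deep-layer cortical neurons, was at 0.20, 0.50 and 0.22 at 8 h, against 0.69, 0.98 and 0.55 at 0 h (-0.43 ± 0.14). Aen, a nuclease that p53 induces, was at 0.42, 0.48 and 0.32 at 8 h, against 0.65, 0.87 and 0.58 at 0 h (-0.29 ± 0.10), while the 23 p53 targets measured had a median of -0.00. Cd74, the invariant chain of antigen presentation, was at 0.09, 0.05 and 0.12 at 8 h, against -0.15, -0.09 and -0.09 at 0 h (0.20 ± 0.07), in a list of 34 interferon genes with 23 above 0 and a median of 0.02.

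**Figure D3:**
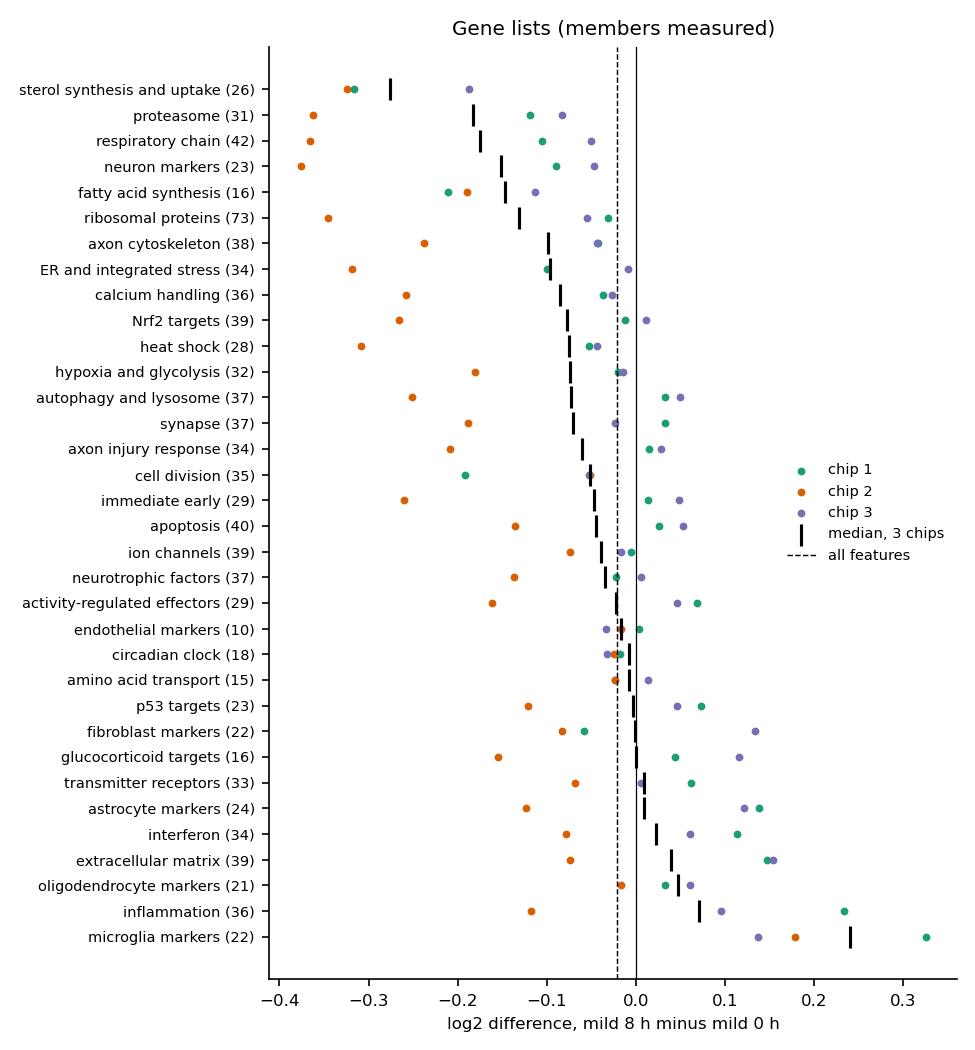
Each line is 1 of 34 gene lists with the number of members measured; bars give the median log2 difference, mild 8 h minus mild 0 h, over the members, dots give it for the pair of arrays on each chip, and the dashed line is the median of all features, -0.02. The sterol list is the lowest at -0.28 and the microglia list the highest at 0.24; chip 2 (orange), which holds mild 0 h replicate 2, lies to the left in most lists.

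Over all 34 lists, 985 of 1084 genes were measured and none passed the adjusted test between 8 h and 0 h. The list median was below that of all features in 21 lists and above it in 13. Beyond the sterol and microglia lists, the medians lay between -0.18 and 0.07. Extracellular matrix genes had 23 of 39 above 0, a median of 0.04 and 4 genes higher at an unadjusted p under 0.05 (10.3%, against 1.23% of all features), Lamb2 among them.

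The mild 24 h arrays show how genes that differed little between 8 h and 0 h stood later. This comparison shares the 8 h arrays with the one above, so the values are set side by side and no overlap is read from them. Between 24 h and 8 h, 66 features passed (0.302%; limma, adjusted p under 0.05), 50 higher (0.229%) and 16 lower (0.0732%) at 24 h, and 1521 (6.96%) had an unadjusted p under 0.05. A fit that blocks on the chip passed 26, all among the 66, and leaving out 1 array passed 4 (without mild 8 h replicate 3) to 35 (without mild 24 h replicate 2). Egr1 was at -0.06, 0.03 and 0.18 at 24 h, against -1.16, -1.49 and -1.24 at 8 h, a rise of 1.34 ± 0.12 (adjusted p = 0.00033), beside a difference of 0.09 between 8 h and 0 h. Fos rose by 1.21 ± 0.14 at 24 h over 8 h (adjusted p = 0.00391), beside -0.01 between 8 h and 0 h. Among 29 immediate early genes 4 rose in this way, Egr1, Egr2, Egr4 and Fos, and so did Tnnt2, Ccn2, Nupr1, Cyp26b1 and Dusp1. In the limma fit that adds the 6 control arrays none passed (1282 at an unadjusted p under 0.05), and for Egr1 the adjusted p was 0.307.

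Among the 16 that fell were 5 of the 22 microglial markers. Aif1, a calcium-binding protein of microglia, was at -0.90, 0.39 and -1.09 at 24 h, against 1.59, 1.78 and 1.44 at 8 h (-2.14 ± 0.39, adjusted p = 0.0429), and it was at 0.30, 1.77 and 1.31 at 0 h. C1qb, another chain of the first complement component, was at -0.98, 0.36 and -1.15 at 24 h, against 1.34, 1.42 and 1.21 at 8 h (-1.91 ± 0.34, adjusted p = 0.0419), and it was at 0.20, 1.19 and 1.00 at 0 h. For both genes the 8 h arrays lay close together while the 0 h and 24 h arrays were spread, replicate 1 being the low one at 0 h and replicate 2 the high one at 24 h. With the chip as a block their adjusted p was 0.0747. Ccl4 fell as well (-0.64, adjusted p = 0.0148; 0.0374 with the block), and so did Trem2, Lcp1, Ccl12, C1qc, Fcgr3a, Rac2 and Itgb2. Of these 7, Trem2, Lcp1 and Ccl12 also passed with the block (adjusted p 0.0374 to 0.0421), and the other 4 did not (0.0747 to 0.119). Over all features 5 falls passed with the block. Without 1 array, 0 falls passed without mild 24 h replicate 1, mild 8 h replicate 1 or mild 8 h replicate 3 (limma; 1504, 1455 and 1229 features of either direction at an unadjusted p under 0.05), 3 without mild 8 h replicate 2, 4 without mild 24 h replicate 3 and 17 without mild 24 h replicate 2.

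The promoter of Egr1, at chr18:26736828-26737077 on the plus strand, is shown because the gene differed little between 8 h and 0 h and had the largest rise of its list at 24 h. Capitals mark its 2 CArG boxes, sites of the serum response factor, searched on both strands.
Egr1: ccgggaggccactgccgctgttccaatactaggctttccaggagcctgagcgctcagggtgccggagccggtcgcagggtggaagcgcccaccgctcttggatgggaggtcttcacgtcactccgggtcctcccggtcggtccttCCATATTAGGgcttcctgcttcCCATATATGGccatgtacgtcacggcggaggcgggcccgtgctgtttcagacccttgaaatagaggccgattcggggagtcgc
A CArG box is found in 1.5% of all 27457 promoters of this length and in 4 of the 21 found for the immediate early list (19.0%). Fos had no promoter entry.

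**Figure D4:**
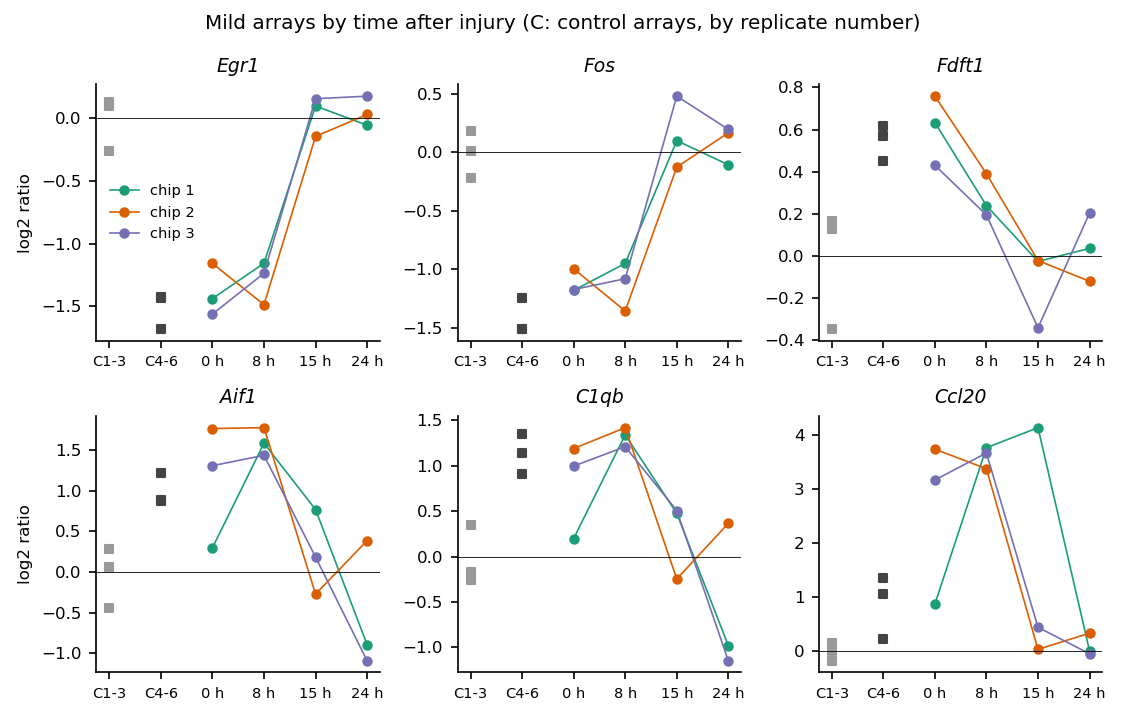
Each panel gives the log2 ratio of 1 gene in control replicates 1 to 3 (C1-3, the divisor), control replicates 4 to 6 (C4-6) and the mild arrays at 0, 8, 15 and 24 h, joined by chip. Egr1 and Fos lie low in C4-6, at 0 h and at 8 h and between -0.14 and 0.48 from 15 h on; Fdft1 lies lower at 8 h than at 0 h on every chip; Aif1, C1qb and Ccl20 are high at 8 h on all chips and low at 0 h on chip 1 alone.

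The step between 0 h and 8 h was also set against that after severe neurotrauma. There the divisor, the mean of the 3 arrays labelled mild 48 h, is common to all severe times and cancels. The severe 0 h group is 1 array, assumed to vary like the others. The mild step minus the severe step passed for 0 features (0%; limma, 25 arrays), with 1028 (4.71%) at an unadjusted p under 0.05 and a smallest adjusted p of 0.233, for Vwf. Fitted on the 10 compared arrays alone, 24 features passed. A difference between the steps was not detectable in the larger fit, which does not show that the steps were alike.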

How the data were processed

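RNA from mild 8 h and mild 0 h cultures was measured on Illumina RatRef-12 beadchips, per the labels. The authors deposited 1 linear ratio per probe and array, 22226 probes on 34 arrays. From the values, each is an array's signal over its median, divided by the mean of 3 arrays. These were control replicates 1 to 3 for the controls and the mild 0 to 24 h arrays. For the mild 48 h and severe arrays they were the arrays labelled mild 48 h replicates 1 to 3. Background correction, software and filters are not given in the sources used here. A second deposited table has 34 signal columns that no label names; they were matched by value to the ratios to find the divisor and the order of the arrays, and used in no comparison. Precision is limited by the number of arrays, as a ratio holds no signal level.

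All ratios were analysed as log2. Probe names came from the platform annotation (13192), the RefSeq accession (363) or the deposited description (8566); 105 stayed unnamed. Where a gene had several probes (358 genes) their mean was used. The test was that of limma 3.58.1 (R 4.3.3) on the 12 mild arrays of 0 to 24 h, 1 mean a group, with Benjamini-Hochberg adjustment within a comparison, and each script's test was tested on simulated data. Promoters came from RefSeq (GRCr8). Figures used matplotlib 3.10.9 in Python 3.11.15. Array replicates that share a number share a chip, per the labels' array barcodes; their deviations from the group means correlated at -0.14, -0.15 and 0.22 (other pairs, -0.27 to 0.34), so the chip was an alternative and not a term.

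Genes named were the 15 in each direction with the smallest unadjusted p, on the same side on all 3 chips and with a symbol not starting with LOC, RGD or MGC, up to 2 of each list, and Fos, Egr1, Atf3, Jun, Gap43, Bdnf, Tubb3 and Gfap; 1 gene the rule named is not reported here. Other genes given, and those of the 24 h comparison, were chosen after their values were seen. The lists and members were chosen with earlier results of these data known. Alternatives covered scaling, chip, arrays fitted, eBayes, probes and each replicate left out.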

Additional observations from a re-analysis of the deposited data

Results flagged for a closer look

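Gap43, the growth-cone protein, had a control array far from the others. Over the 6 control arrays its lowest log2 ratio was -0.24, the next was 0.06 and the highest was 0.17, so the gap below was 0.73 of the whole range, above Dixon's 95% critical value for 6 samples. Of 42 sets of control arrays examined this way it was the only one so marked, and chance marks about 1 in 20. The lowest array is control replicate 2, which is part of the divisor, so it enters every Gap43 ratio given here and cancels in the difference between 8 h and 0 h.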

How the results depend on the processing

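No feature passed between mild 8 h and mild 0 h under any of the 17 settings (limma), the chip as replicate block included, with smallest adjusted p from 0.388 (without mild 0 h replicate 3) to 1.00; leaving out each replicate gave 0 to 0. Features at an unadjusted p under 0.05 numbered 1037 as reported, 2283 without mild 0 h replicate 3, 586 without mild 0 h replicate 2, 606 without mild 8 h replicate 3, 2011 after housekeeping centring, 663 with platform-annotated probes, 1547 with the 6 compared arrays, 608 with the controls in the fit and 436 with all 34 arrays. Among 116 named genes and 1723 alternative values, none passed and 15 turned sign, in 9 genes close to 0. Jun was -0.0052 after quantile normalization. Housekeeping centring gave Dusp5 0.043, Atp6v0d1 0.016, Dio2 0.034, Egfl7 0.053 and Fos 0.15. Without 1 replicate, Jun ranged from -0.084 to 0.054, Gfap from -0.035 to 0.16, Fos from -0.10 to 0.10, Tubb3 from -0.035 to 0.11 and Bdnf from -0.0093 to 0.14. Between 24 h and 8 h, where 66 passed, there were 26 with the chip as replicate block, 209 after quantile normalization, 245 with the 6 compared arrays, 0 with the controls in the fit and 0 with all 34 arrays (1282 and 894 at an unadjusted p under 0.05, limma), and 4 to 35 without 1 replicate (4 without mild 8 h replicate 3); none of 65 genes turned sign. For the mild step minus the severe step there were 24 with the 10 compared arrays and 0 to 1 without 1 replicate (1 without severe 8 h replicate 2). The causes were not tested.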
